A study of Mus musculus with 550 samples.

Results

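Day 9 embryoid bodies (EBs) lacking DNMT3B were compared with wild type (WT) EBs of the same day, cell by cell, by Smart-seq2 RNA sequencing. EBs are aggregates that mouse embryonic stem cells form when LIF, the cytokine that keeps them undifferentiated, is withdrawn. The comparison used every sequenced cell labelled Dnmt3b knockout (3BKO) or WT at day 9 that had at least 50000 reads and 2000 detected genes, with no more than 50% of its reads from mitochondrial genes. This left 67 of 93 3BKO cells and 89 of 91 WT cells, or 156 of the 550 cells in the series. The other cells came from Dnmt3a knockout (3AKO) EBs and from day 3, and 88 kept 3AKO cells of day 9 and 79 kept WT cells of day 3 serve below as reference levels.

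All lines were E14 embryonic stem cells, and EBs of every genotype were grown without LIF in the same serum-containing medium. The study's methods state that a pair of independent knockout clones was used and that EBs were pooled before single cells were sorted. The labels do not say which cell came from which clone or EB, so each genotype counts as 1 sample and no test between genotypes was possible. Each genotype of day 9 was on 1 plate, so plate and genotype cannot be told apart. Each plate was divided into a batch 1 and a batch 2, and a gene is called higher or lower below only where both agree; values of genes that were not tested or did not pass are given as levels. The batches are parts of 1 plate and are not biological replicates.

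DNMT3A and DNMT3B are the enzymes that place new methyl groups on cytosines, mostly at CpG dinucleotides, when the epiblast of the embryo implants. DNMT3L, which has no catalytic activity, assists both, and DNMT1 copies existing methylation at replication. Around the same time epiblast cells leave a naive pluripotent state, marked by factors such as Klf4, Tbx3 and Zfp42, and enter a primed state, marked by genes such as Fgf5, before they form ectoderm, mesoderm and endoderm. Methylation is also known for silencing promoters of germline genes in somatic cells.

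The share of cells kept was 72.04% for 3BKO (95% exact binomial interval 61.8 to 80.9) and 97.8% for WT (92.3 to 99.7), and it was nearly equal in both 3BKO batches (71.9% and 72.4%). Of the 26 3BKO cells left out, 24 had too few reads. The kept cells held 34821361 reads in WT and 30287278 in 3BKO. Median depth per cell was 363652 reads in WT and 336187 in 3BKO, with medians of 5652 and 5879 detected genes. The 21 kept 3BKO cells of batch 2 were deeper, with a median of 692321 reads against 302116 in the 46 cells of batch 1, and gave 53.7% of all 3BKO reads; the same batch gave 34.3% of WT reads. The part of this imbalance in the results was not tested beyond the batch-wise values given with them.

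Levels are given in CPM, for which the reads of a gene were summed over the cells of a group and scaled to the total reads of that group. Ratios are log2 ratios of 3BKO to WT after adding 1 CPM, which understates the difference of low genes. A gene was tested where at least 20% of the cells of either genotype had a read in each batch, and it counts as higher or lower where the log2 ratio was 1 or more in that direction in each batch. Of 9232 genes tested, 264 (2.86%) were higher and 458 (4.96%) were lower in 3BKO. By the same rule, 3AKO against the same WT cells gave 98 higher (1.07%) and 146 lower (1.59%) of 9198 genes. The median log2 ratio of all tested 3BKO genes was -0.08 (-0.06 in batch 1 and -0.08 in batch 2), and 92 genes were past the fold in opposite directions in the 2 batches. Y-linked genes were left out. Counts of list members below are to be read beside the 2.86% and 4.96% of all tested genes.

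**Figure D1:**
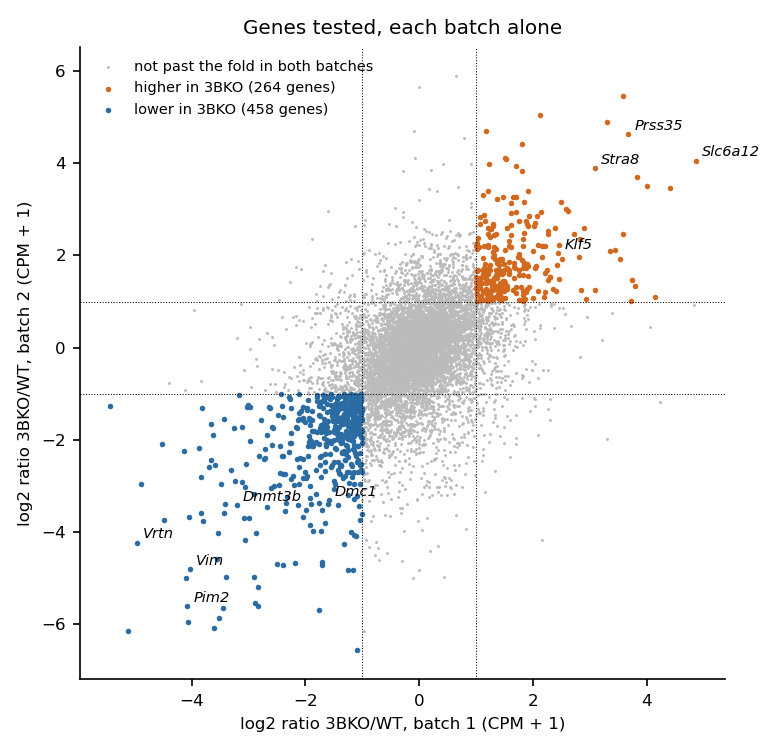
Log2 ratio of 3BKO to WT at day 9 for each of the 9232 genes tested, batch 1 on the horizontal axis and batch 2 on the vertical axis, with dotted lines at a ratio of 1 in either direction. The 264 genes higher in both batches (orange) lie in the upper right and the 458 lower in both (blue) in the lower left, and Vim, Pim2 and Vrtn lie far out on the lower side.

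Dnmt3b itself (ENSMUSG00000027478.15, chromosome 2, 153649450 to 153687730, GRCm38) was checked first. Its level was 155 CPM in batch 1 and 189 CPM in batch 2 of WT, and 15.9 CPM and 16.8 CPM in 3BKO. Over both batches this was 167 CPM (95% exact Poisson interval 162 to 171) against 16.4 CPM (14.97 to 17.88). The log2 ratio was -3.27, and 496 reads remained in 3BKO, 40.7% of them in 1 cell. The labels do not say which part of the gene was removed, so the remaining reads cannot be placed inside or outside it. After each cell was reduced to 50000 reads, 58.4% of WT cells and 14.9% of 3BKO cells had a Dnmt3b read.

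The partner enzymes differed in opposite directions. Dnmt3l had 53.3 and 35.3 CPM in the WT batches and 298 and 170 CPM in the 3BKO batches, a log2 ratio of 2.26. Dnmt3l shares exon bases with Aire on the opposite strand and has a pseudogene, so its reads carry some uncertainty. Dnmt3a had 177 and 144 CPM in WT and 84.1 and 44.8 CPM in 3BKO, a log2 ratio of -1.38. Thus the accessory factor was higher and the catalytic partner lower in both batches. Of the 18 genes listed as methylation machinery, 14 were tested. Of these, 1 was higher and 2 were lower, the second being the targeted gene, beside 2.86% and 4.96% of all tested genes. Dnmt1 had a log2 ratio of -0.99 and did not reach the fold in batch 1 (-0.64). In 3AKO, Dnmt3l had 128 CPM and Dnmt3b 252 CPM.

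Promoter sequences are shown for 5 of the genes described below, 3 germline genes that were higher in 3BKO and 2 primed-state genes that were lower, since CpG dinucleotides are where DNMT3B acts. Each is the 250 bases before the annotated start, read 5′ to 3′ on the gene's own strand, from RefSeq's GRCm38.p6 annotation, with every CpG in capitals:
Dazl, chr17:50293621-50293870, minus strand: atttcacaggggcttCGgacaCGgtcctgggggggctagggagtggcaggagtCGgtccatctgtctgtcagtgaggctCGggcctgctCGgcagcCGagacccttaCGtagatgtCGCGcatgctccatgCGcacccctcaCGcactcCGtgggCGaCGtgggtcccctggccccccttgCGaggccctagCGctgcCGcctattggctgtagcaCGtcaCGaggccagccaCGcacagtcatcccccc
Stra8, chr6:34920698-34920947, plus strand: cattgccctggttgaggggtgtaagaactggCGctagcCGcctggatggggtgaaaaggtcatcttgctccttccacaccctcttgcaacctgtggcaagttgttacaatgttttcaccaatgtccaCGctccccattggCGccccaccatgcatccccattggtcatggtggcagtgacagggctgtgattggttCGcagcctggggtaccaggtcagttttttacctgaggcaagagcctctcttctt
Tex19.1, chr11:121145893-121146142, plus strand: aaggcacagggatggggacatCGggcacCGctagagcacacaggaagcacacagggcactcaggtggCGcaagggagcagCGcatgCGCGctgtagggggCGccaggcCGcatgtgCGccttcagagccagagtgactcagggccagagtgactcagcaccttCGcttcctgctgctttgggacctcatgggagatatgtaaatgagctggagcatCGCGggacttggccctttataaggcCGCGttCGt
Pim2, chrX:7878056-7878305, plus strand: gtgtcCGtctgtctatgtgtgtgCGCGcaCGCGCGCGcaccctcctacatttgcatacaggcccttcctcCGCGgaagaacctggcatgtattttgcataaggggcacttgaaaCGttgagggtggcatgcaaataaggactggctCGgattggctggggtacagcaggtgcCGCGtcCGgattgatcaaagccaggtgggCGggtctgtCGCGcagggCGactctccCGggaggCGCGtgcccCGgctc
Fgf5, chr5:98253934-98254183, plus strand: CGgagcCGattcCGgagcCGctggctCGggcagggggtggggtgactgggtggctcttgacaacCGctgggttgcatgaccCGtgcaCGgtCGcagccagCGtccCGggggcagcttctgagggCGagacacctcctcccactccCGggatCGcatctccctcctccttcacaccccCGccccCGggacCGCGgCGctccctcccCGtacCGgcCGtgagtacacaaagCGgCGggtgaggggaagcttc

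The Dazl window held 20 CpGs and that of Tex19.1 held 15, while the Stra8 window held 5. Pim2 had 22 and Fgf5 had 24. The median over the first window of 27025 gene symbols was 6, so both the higher and the lower genes included CpG-rich starts. The GENCODE annotation used for positions starts Stra8 at 34920163, so the Stra8 window lies inside the gene as annotated there. The letters GCGGGA, found in binding sites of E2F factors, occurred on either strand once in the Tex19.1 window and in none of the other 4, against 16.9% of all windows. CACGTG, the E-box core, occurred in none of the 5 and in 6.05% of all windows. No methylation was measured in these cells.

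Several naive pluripotency genes were higher in 3BKO. Of 21 listed genes, 18 were tested, 6 were higher and none was lower, beside 2.86% and 4.96% of all tested genes, and the list's median log2 ratio was 0.79 (0.88 in batch 1 and 0.86 in batch 2). The 6 were the transcription factor genes Tbx3, Klf5, Klf4, Zfp42 and Prdm14, and Spp1, which encodes the secreted protein osteopontin. In 3AKO, the median of the same list against the same WT cells was -0.22, and no member was past the fold.

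Klf5 had 76.6 and 84.4 CPM in the WT batches and 423 and 352 CPM in the 3BKO batches, a log2 ratio of 2.26, and 98.5% of 3BKO cells exceeded the median WT cell in their batch. Tbx3 had 29.5 and 17.3 CPM in WT and 201 and 101 CPM in 3BKO (log2 ratio 2.49). Klf4 had 11.1 and 12.1 CPM in WT and 41.7 and 59.5 CPM in 3BKO (log2 ratio 2.07). For each of these genes, picked for passing the fold in both batches, both 3BKO sums were above both WT sums. Zfp42, the zinc finger gene also known as Rex1, had a log2 ratio of 1.24, and after reduction to 50000 reads it was read in 77.5% of WT cells and in all 67 3BKO cells. Nanog had log2 ratios of 0.91 and 0.86 in the batches and stayed below the fold. Klf2, Tdh, Stat3 and Il6st, also on the list, had negative ratios (-0.14, -0.57, -0.97 and -0.42). The untested Dppa3, Gbx2 and Socs3 had 10.6 CPM or less in either genotype. Gbx2 had log2 ratios of -1.48 and -2.43 in the batches, Socs3 -1.14 and -2.23, and Dppa3 -3.40 and 0.66.

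In single cells the summed level of the 21 naive genes ranged from 5.89 to 13496 CPM in WT, with a median of 3950, and from 933 to 20676 CPM in 3BKO, with a median of 8683. Of 67 3BKO cells, 62 exceeded the median WT cell in their batch (92.5%, exact interval 83.4 to 97.5). The WT cells thus reached down to almost no naive transcript while no kept 3BKO cell did. Zfp42, with 963 CPM in WT and 2269 CPM in 3BKO, and Spp1, with 1076 and 2987 CPM, weighed most in these sums.

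Genes shared by naive and primed cells differed less. Pou5f1, which encodes the pluripotency factor OCT4, had 96.1 and 95.3 CPM in WT and 126 and 96.4 CPM in 3BKO, a log2 ratio of 0.20. Sox2, its partner, had 45.6 and 37.98 CPM in WT and 76.4 and 87.4 CPM in 3BKO (log2 ratio 0.92, and 0.73 in batch 1). Dppa2 was the 1 of 14 tested genes past the fold, with a log2 ratio of 1.51. The list's median was 0.28.

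**Figure D2:**
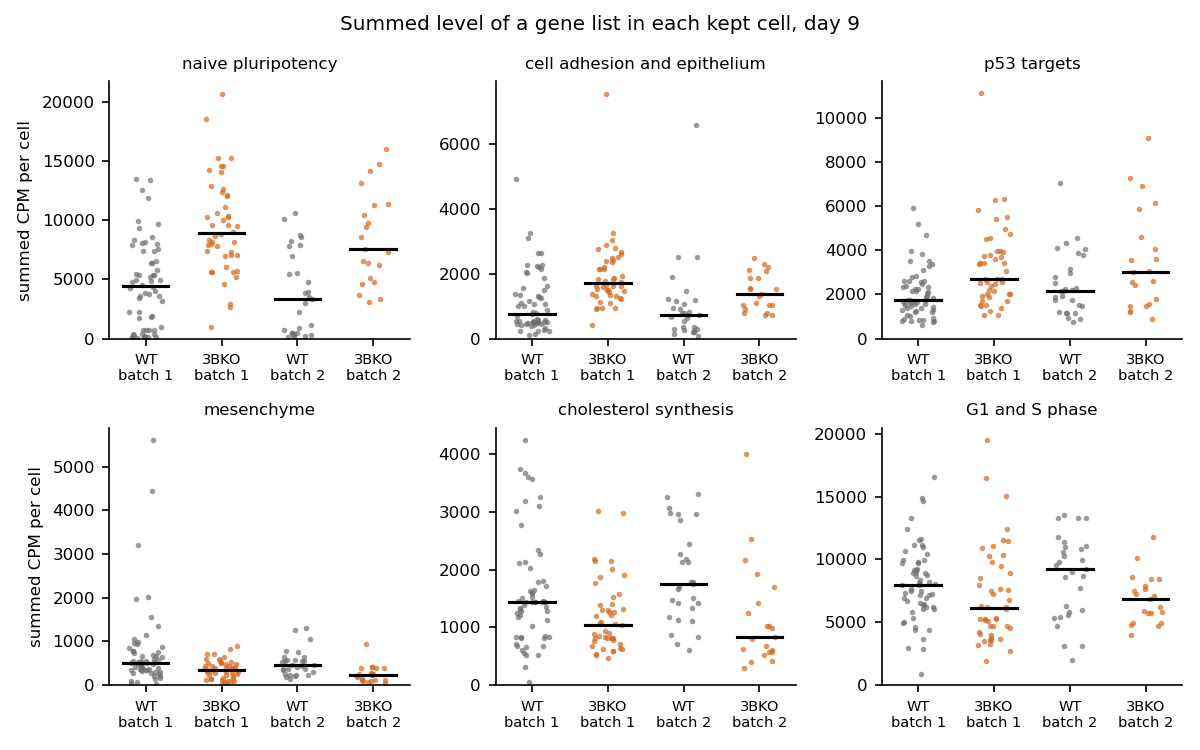
Summed CPM of 6 gene lists in each kept cell of day 9, by genotype and batch, with 1 point per cell and a bar at the median; the vertical axes differ between panels and start at 0. In both batches the 3BKO median lies above the WT median for naive pluripotency, cell adhesion and epithelium, and p53 targets, and below it for mesenchyme, cholesterol synthesis, and G1 and S phase.

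Some primed epiblast genes were lower in 3BKO. Of 18 listed genes, 11 were tested, 5 were lower (Car14, Sall2, Pim2, Fgf5 and Trh) and none was higher, beside 4.96% and 2.86% of all tested genes. Trh, a hormone precursor gene, kept 201 CPM against 610 CPM in WT. Car14, which encodes a membrane carbonic anhydrase, had 98.2 and 78.97 CPM in WT and 1.85 and 0.12 CPM in 3BKO, a log2 ratio of -5.59. Pim2, which encodes a growth-promoting kinase, had 420 and 387 CPM in WT and 23.9 and 6.95 CPM in 3BKO (log2 ratio -4.69). Fgf5, a growth factor gene of the primed epiblast, had 62.7 and 57.9 CPM in WT and 4.56 and 0.00 CPM in 3BKO (log2 ratio -4.32), with 89.1% of the remaining 3BKO reads in 1 cell. WT and 3BKO sums did not overlap for any of the 3, which were picked for passing the fold in both batches. In 3AKO the levels were 70.7, 499 and 82.2 CPM.

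The other primed genes did not follow. Otx2, a homeobox gene that drives the step into the primed state, had a log2 ratio of 0.79, Igfbp2 0.67 and Cldn6 0.51. The list's median was -0.40, between -0.16 in batch 1 and -0.87 in batch 2, and 0.32 over the members detected in 40% of cells, and the summed level of the list per cell had medians of 2137 CPM in WT and 1999 CPM in 3BKO.

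Lineage markers were sparse in both genotypes. Of 18 mesoderm genes only Eomes, a T-box factor of the primitive streak, was tested, with log2 ratios of 0.01 and 2.33 in the batches. T, the classical streak gene, had no read in 3BKO and 98.9% of its WT reads in 1 cell, and Mixl1 had none in either. Of 12 fixed meso-endoderm markers, 5 had no read in 3BKO (T, Mixl1, Mesp1, Foxa2 and Cer1) and 1 had none in WT. Their summed level was 170 and 201 CPM in the WT batches and 71.2 and 56.5 CPM in the 3BKO batches. At full depth, the most widely read of the 12 in each genotype was found in 12.4% of WT and 37.3% of 3BKO cells. The 18 mesoderm genes summed to 47.4 and 12.7 CPM in the WT batches and 41.4 and 58.6 CPM in the 3BKO batches. Sox17, an endoderm factor, had 25.9 CPM in both WT batches and 2.07 and 0.00 CPM in 3BKO, yet it was read in only 3.37% of WT cells after reduction to 50000 reads. Apoe, an apolipoprotein gene on the endoderm list, had a log2 ratio of -0.92 (-0.80 and -1.05 in the batches). The differences at T and Sox17 therefore rested on few cells. Summed over the endoderm list, the median cell had 2482 CPM in WT and 1668.5 CPM in 3BKO. Of 67 3BKO cells, 16 exceeded the median WT cell in their batch (23.9%, interval 14.3 to 35.9).

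A pair of early neural ectoderm genes was lower. Of 23 listed genes 8 were tested, 2 were lower and none was higher, beside 4.96% and 2.86% of all tested genes, and the median log2 ratio was -0.88 (-0.17 in batch 1 and -1.02 in batch 2). Sox11, a neural SOX factor, had 11.9 and 25.5 CPM in WT and 0.64 and 5.54 CPM in 3BKO (log2 ratio -2.04), with 90.9% of its 3BKO reads in 1 cell. Crabp2, a retinoic acid carrier, had a log2 ratio of -2.01. In contrast, Tubb3, a neuronal tubulin, had 0.43 and Ncam1, an adhesion molecule, 0.68, both below the fold. Of 12 fixed ectoderm markers 7 had no read in 3BKO, among them Sox1 and Nes, and 1 had none in WT. Their summed level was 241 and 175 CPM in WT and 249 and 112 CPM in 3BKO, and these ranges overlapped. Of these markers only Tubb3 had a higher level in 3BKO, with 162 CPM against 120 CPM in WT over both batches. Below the detection limit, Hes3 had 21.5 CPM in WT and 0.07 CPM in 3BKO, and Fabp7 6.95 and 0.00 CPM. Pax6, also untested, had 25.1 and 6.47 CPM, with a log2 ratio of -0.38 in batch 2.

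Markers of other cell types were also low beside the epiblast markers. The 6 extraembryonic endoderm markers summed to 22.1 and 34.5 CPM in WT and 6.91 and 13.7 CPM in 3BKO, with Afp and Ttr at 0 in 3BKO and Afp and Amn at 0 in WT. The 5 fibroblast markers summed to 12.9 and 10.5 CPM in WT and 1.07 and 1.23 CPM in 3BKO. The 5 blood and endothelial markers summed to 56.1 and 12.7 CPM in WT and 144 and 136 CPM in 3BKO, with Cdh5 at 0 in 3BKO and Hbb-bh1 at 0 in both. Only 1 of these 5 was tested, and the most widely read of them was found in 34.8% of WT and 77.6% of 3BKO cells. The epiblast markers, 10 genes, were the abundant ones: 7838 and 4738 CPM in WT and 12597 and 7840 CPM in 3BKO. The part of these differences in the results was not tested.

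Trophoblast genes moved at a pair of members that other cells also use. Slc2a1, the glucose transporter GLUT1, and Tfap2c, an AP-2 factor of trophoblast and germ cells, were the 2 tested genes of 16 and both were higher (log2 ratios 1.55 and 1.11). Slc2a1 had 1481 and 1577 CPM in WT and 5252 and 3718 CPM in 3BKO, so it set most of the list's summed level, which was above the WT median in all 67 3BKO cells. The defining factor genes Cdx2 and Elf5 had 0.00 CPM in WT and at most 0.50 CPM in a 3BKO batch.

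Several germline genes were higher in 3BKO. Of 28 listed genes 9 were tested, 4 were higher (Stra8, Dazl, Tex19.1 and Rpl10l) and 2 were lower (Dmc1 and Stag3), beside 2.86% and 4.96% of all tested genes. Stra8, a gatekeeper of meiosis that retinoic acid induces, had 26.9 and 15.8 CPM in WT and 235 and 251 CPM in 3BKO, a log2 ratio of 3.34. Tex19.1, a germ cell gene with a role against retrotransposons, had 80.4 and 29.9 CPM in WT and 285 and 437 CPM in 3BKO (log2 ratio 2.52). Dazl, an RNA-binding regulator of germ cell fate, had 16.6 and 5.52 CPM in WT and 49.8 and 110 CPM in 3BKO (log2 ratio 2.59). After reduction to 50000 reads, Tex19.1 was read in 37.1% of WT and 80.6% of 3BKO cells, Stra8 in 10.1% and 59.7%, and Dazl in 13.5% and 28.4%. Hence the higher sums came with more positive cells.

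The 2 lower genes of the list act in meiosis. Dmc1, a strand-exchange recombinase, had 13.2 and 63.2 CPM in WT and 3.70 and 5.48 CPM in 3BKO (log2 ratio -2.47), and Stag3, a meiotic cohesin subunit, had a log2 ratio of -1.76. Sycp3 and Tex11, also meiotic, were tested and did not pass (-0.45 and -0.43), and Sycp1 and Hormad1, below the detection limit, had ratios of 0.37 and 0.35. The median of the 9 tested genes was 1.52 over both batches, yet 0.04 in batch 1 and 1.69 in batch 2. In 3AKO, 5 of the 11 genes tested were higher, with Dazl at 81.2 CPM, Tex19.1 at 67.6 CPM and Stra8 at 9.18 CPM. The 13 Rhox homeobox genes, another germline cluster, were all below the detection limit and summed to 27.1 and 43.5 CPM in WT and 70.8 and 130 CPM in 3BKO.

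Genes of the two-cell stage embryo were read in a minority of 3BKO cells. This programme, which includes the Zscan4 family and the transcription factor gene Duxf3, is known to switch on briefly in rare embryonic stem cells. All 18 listed genes in the table were below the detection limit, so none was tested. Together they had 5 reads in WT and 33453 reads in 3BKO. A read of any of them was found in 17 of 67 3BKO cells (25.4%, exact interval 15.5 to 37.5) and in 2 of 89 WT cells (2.25%, interval 0.27 to 7.88). After reduction to 50000 reads the shares were 20.9% and 1.12%. Both batches of 3BKO held such cells (23.9% and 28.6%), while 7.95% of 3AKO cells and 0 of 79 day 3 WT cells did.

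The cells differed widely in how much they held. At least 5 of the 18 genes were read in 6 3BKO cells (8.96%, interval 3.36 to 18.5), 4 in batch 1 and 2 in batch 2, in 1 3AKO cell and in 0 of 89 WT cells (upper limit 4.06%). The summed levels of the 6 were 19560, 19049, 14486, 6312, 1831 and 1351 CPM. The first of them held 55.2% of the two-cell stage reads of all 3BKO cells. Zscan4d was read in 19.4% of 3BKO cells, Zscan4f in 14.9% and Duxf3 in 10.4%. Zfp42 ranged from 178 to 4383 CPM and Pou5f1 from 0.00 to 206 CPM in the same 6 cells. The Zscan4 and Usp17l genes are near-identical copies, and reads that mapped to several places were not counted, so the sums leave such reads out and the split between members is uncertain. The reads carry no molecular identifiers, so intervals cover counting error only.

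**Figure D3:**
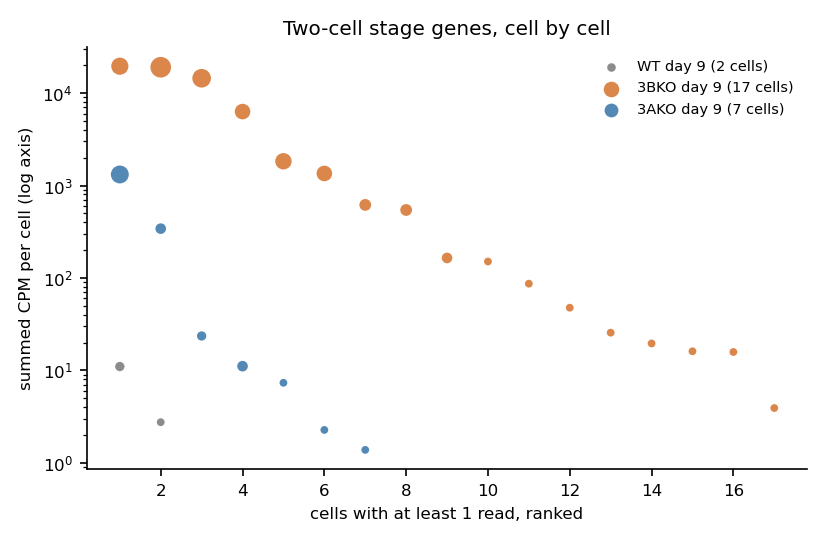
Summed CPM of the 18 two-cell stage genes, on a log axis, in each cell of day 9 with at least 1 read of them, ranked within its genotype; larger points had more of the genes. The 17 3BKO cells run from 19560 to 3.91 CPM, the 7 3AKO cells start at 1317 CPM, and the 2 WT cells lie at 11.01 and 2.75 CPM.

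The 15 highest ratios were of genes with between 1.21 and 23.1 CPM in WT. Slc6a12, a betaine and GABA transporter, had 0.35 and 2.93 CPM in WT and 38.3 and 64.6 CPM in 3BKO, a log2 ratio of 4.58, and 81.4% of its 43 WT reads came from 1 cell. Prss35, a serine protease homologue, had 9.80 and 5.61 CPM in WT and 137 and 164 CPM in 3BKO (log2 ratio 4.03) and was read in 13.5% of WT and 59.7% of 3BKO cells after reduction to 50000 reads. Alox12b and Alox12e, which encode lipoxygenases that oxidise fatty acids in epidermis, had log2 ratios of 3.95 and 3.77. Alox12b had 3.02 and 0.00 CPM in WT and 46.9 and 43.2 CPM in 3BKO, and Alox12e had 5.82 and 6.44 CPM in WT and 108 and 84.1 CPM in 3BKO. Both genes lie on chromosome 11, from 69156989 to 69169792 and from 70315610 to 70322628 (GRCm38). Of 16 lipoxygenase and prostanoid genes, 4 were tested, and these 2 were higher.

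The list of the 15 highest went on with Moxd1, a monooxygenase-like gene (log2 ratio 3.76), Gpx2, a glutathione peroxidase (3.41), Stra8, Zfp273, Hist1h2bg, Dnah11, Cyp2s1, Ddit4, Cd80, Ripk4 and Elf1, down to 2.79. For all 15 both 3BKO sums were above both WT sums, which follows largely from picking them by their ratios. In 3AKO the levels of Slc6a12, Alox12b and Alox12e were 0.84, 0.08 and 3.90 CPM, and in day 3 WT cells 0.91, 0.00 and 0.00 CPM. Others of the 15 were above their WT level in 3AKO too, with Ddit4 at 27.1 CPM (1.21 in WT), Ripk4 at 29.4 CPM (10.3 in WT), Prss35 at 23.5 CPM (8.36 in WT) and Cyp2s1 at 12.9 CPM (4.51 in WT). One of the 15, Hist1h2bg, had 63.5% of its 3BKO reads in 1 cell. Dnah11, Cyp2s1 and Elf1, like Car14, Bag2 and Prom1 among the lowest, share exon bases with a gene on the opposite strand.

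The 15 lowest ratios were of genes with between 0.00 and 14.8 CPM in 3BKO. Vim, which encodes the intermediate filament protein vimentin, had 289 and 124 CPM in WT and 16.8 and 3.45 CPM in 3BKO, a log2 ratio of -4.46, and was read in 58.4% of WT and 7.46% of 3BKO cells after reduction to 50000 reads. Bag2, a co-chaperone, had 40.6 and 61.2 CPM in WT and 1.496 and 0.00 CPM in 3BKO (log2 ratio -4.85), where all of its 21 reads came from 1 cell. Vrtn, which sets the number of vertebrae in some mammals, had 905 reads in WT and none in 3BKO. Against a floor of 3 counts over the group, its level was at least 262-fold lower. Sall2, Prtg, Bmerb1, Arhgef25, Stk39, Trib2, Car4, Fzd2 and Prom1 completed the 15 lowest with Car14, Pim2 and Fgf5, and all had log2 ratios from -5.59 to -3.97. In 3AKO, these genes had levels such as 117 CPM for Vim, 38.8 CPM for Bag2 and 32.4 CPM for Vrtn.

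The low levels were also seen cell by cell. Among Pim2, Car14, Fgf5, Sall2, Vim, Bag2, Vrtn and Prtg, and with each cell reduced to 50000 reads, 78 of 89 WT cells (87.6%) and 25 of 67 3BKO cells (37.3%) had a read of at least 1 of the 8. At least 3 were read in 38 WT cells (42.7%, interval 32.3 to 53.6) and in 2 3BKO cells (2.99%, interval 0.36 to 10.4). The most in any 3BKO cell was 3. These genes were picked for their low ratios, so the shares only describe the spread over cells. Pim2 was the gene still read most often, in 28.4% of 3BKO against 40.4% of WT cells.

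**Figure D4:**
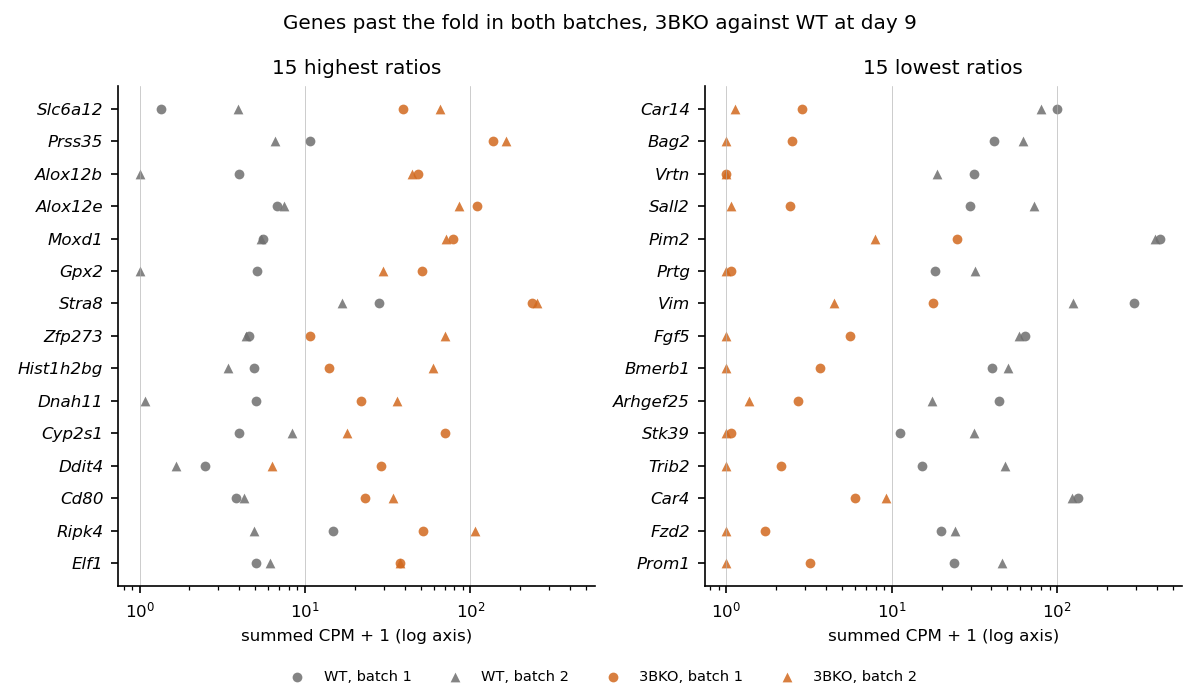
Summed CPM plus 1, on a log axis, of the 15 genes with the highest and the 15 with the lowest log2 ratios among those past the fold in both batches. Grey marks are WT and orange marks 3BKO, circles batch 1 and triangles batch 2, and Vrtn is at 0 in both 3BKO batches. The 2 genotypes do not overlap for any gene shown, which follows largely from picking the genes by their ratios in both batches.

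Signalling genes were mostly below the fold. Among 20 Nodal pathway genes, 15 were tested. Nodal, the ligand, was higher, with 125 and 71.1 CPM in WT and 335 and 274 CPM in 3BKO (log2 ratio 1.49). Foxh1, a DNA-binding partner of SMAD2, was lower (log2 ratio -1.46), with 98.1 and 58.9 CPM in WT and 43.95 and 18.2 CPM in 3BKO. Lefty1, the secreted Nodal inhibitor, had log2 ratios of -1.17 and 0.20 in the batches, and Lefty2 -0.10 and 1.59, so the inhibitors had no common direction. Fst, which encodes the activin inhibitor follistatin, was below the detection limit and had 1.16 CPM in 3BKO against 28.98 CPM in WT.

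In the FGF and ERK list, 5 of 17 tested genes were lower and none was higher, beside 4.96% and 2.86% of all tested genes. Besides Fgf5 these were Spred1, Spry1 and Il17rd, which restrain ERK signalling, and Mapk3, which encodes ERK1. Spred1 had 14.6 and 54.2 CPM in WT and 1.99 and 1.11 CPM in 3BKO (log2 ratio -3.54), Spry1 had a log2 ratio of -1.89 and Il17rd -1.76. Fgf4, the ligand of naive cells, had 0.71. The list's median was -0.33.

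The WNT list had 3 lower genes of 14 tested and none higher, beside the same shares. Fzd2, a receptor, had a log2 ratio of -4.01, Sfrp2, a secreted WNT modulator, -2.39 and Lef1, a nuclear effector, -1.48. Ctnnb1, which encodes beta-catenin, had 0.33. None of the 8 BMP, 8 Notch and 3 Hedgehog genes tested was past the fold. In the retinoic acid list, 2 of 8 tested genes were higher (Stra8 and the receptor gene Rxrb, 1.89) and 2 were lower (Crabp2 and the receptor gene Rxrg, -3.91). The shares of all tested genes were 2.86% higher and 4.96% lower.

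Most p53 target genes had positive ratios below the fold. Of 20 tested, 18 had positive log2 ratios. Of these 20, 4 were higher (Eda2r, Plk2, Phlda3 and Btg2) and 1 was lower (Tnfrsf10b), beside 2.86% and 4.96% of all tested genes. The median was 0.75 (0.85 in batch 1 and 0.82 in batch 2), beside -0.08 for all tested genes, and -0.21 for the same list in 3AKO. Plk2, a stress-responsive kinase, had 74.2 and 117 CPM in WT and 240 and 392 CPM in 3BKO (log2 ratio 1.84). Mdm2, the ubiquitin ligase that limits p53, had a log2 ratio of 1.39 but 0.76 in batch 1, and the cell cycle inhibitor gene Cdkn1a 0.53. Summed over the list, 51 of 67 3BKO cells (76.1%, interval 64.1 to 85.7) exceeded the median WT cell in their batch.

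Other stress lists were uneven. Of 25 tested genes of the amino acid stress response, 19 had positive ratios and Cth, a cysteine synthesis enzyme, and Nupr1 were past the fold, and the list's median was 0.52 (0.82 in batch 1 and 0.22 in batch 2). Asns, asparagine synthetase, had log2 ratios of 1.496 and 0.83. In the NRF2 list, Hmox1, the haem oxygenase gene, and Me1, malic enzyme, were higher (log2 ratios 1.54 and 2.30) and Blvrb, which reduces biliverdin, was lower (-1.57). Hspb1, a small heat shock protein gene, had 913 and 369 CPM in WT and 3094 and 1506 CPM in 3BKO (log2 ratio 1.63), and it was the 1 heat shock gene of 12 past the fold. None of 17 ER chaperone genes was. Hspa5, the main ER chaperone, had 0.12.

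Most glycolysis genes had positive ratios, and a few passed the fold. Of 20 tested, 15 had positive log2 ratios, 3 were higher and none was lower, beside 2.86% and 4.96% of all tested genes. Slc2a1, Pfkp, a phosphofructokinase, and Hk1, a hexokinase, were the 3 of 20 tested genes past the fold, with log2 ratios of 1.55, 1.48 and 2.52. Slc2a3, the GLUT3 transporter gene, had 1.40 and 0.97 in the batches. Other enzymes had ratios nearer 0, with Ldha at 0.09, Pkm at -0.03 and Eno1 at -0.42. Summed over the list, 56 of 67 3BKO cells (83.6%, interval 72.5 to 91.5) exceeded the median WT cell in their batch. In 3AKO the list's median was 0.61, against 0.29 in 3BKO. Among 15 hypoxia genes tested, Ddit4, Ankrd37 and Egln3 were higher, beside 2.86% of all tested genes. Pdk1 was lower (-1.13), beside 4.96% of all tested genes.

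Most cholesterol synthesis genes had negative ratios, and a few passed the fold. All 22 listed genes were tested, and 18 had negative log2 ratios. Of the 22, 4 were lower (Mvk, Idi1 and Cyp51 among them) and none was higher, beside 4.96% and 2.86% of all tested genes. The median was -0.62 (-0.43 in batch 1 and -0.73 in batch 2). Mvk, mevalonate kinase, had 42.6 and 27.02 CPM in WT and 15.3 and 6.28 CPM in 3BKO (log2 ratio -1.74). Idi1, an isomerase of isoprenoid units, had a log2 ratio of -1.34, and Cyp51, a sterol demethylase, -1.18. The regulator gene Srebf2 had 0.15. Summed over the list, 15 of 67 3BKO cells (22.4%, interval 13.1 to 34.2) exceeded the median WT cell in their batch. In 3AKO the list's median was 0.03.

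Most adhesion and epithelium genes had positive ratios below the fold. Of 13 tested adhesion and epithelium genes, 12 had positive ratios, and the median was 0.83 (0.76 and 0.63 in the batches). Only Spint1, a protease inhibitor of epithelia, was past the fold (1.18), while 2.86% of all tested genes were higher. Cdh1, E-cadherin, had 51.1 and 62.2 CPM in WT and 86.8 and 155 CPM in 3BKO (log2 ratio 1.15, and 0.75 in batch 1), and Epcam had 0.83. Krt19 was the exception, with -1.15 over both batches but 1.09 in batch 2, and 92.2% of its WT reads came from 1 cell. The summed list was above the WT median of the batch in 65 of 67 3BKO cells (97.0%, interval 89.6 to 99.6).

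All 6 tested mesenchyme genes had negative ratios, with a median of -0.91, and Vim and Tpm2, a tropomyosin gene, were past the fold. Fn1, fibronectin, had -0.44. Cdh2, N-cadherin, was below the detection limit and had 13.3 and 3.26 CPM in WT and no read in 3BKO. Mfap2, a microfibril gene, was the 1 of 12 tested matrix genes past the fold (log2 ratio -3.42). Among neuronal cytoskeleton and guidance genes, Dpysl2, Stmn3 and Map1b were lower (-2.72, -2.41 and -2.03), and the guidance receptor genes Robo1 and Ephb3 were higher (1.62 and 1.496).

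**Figure D5:**
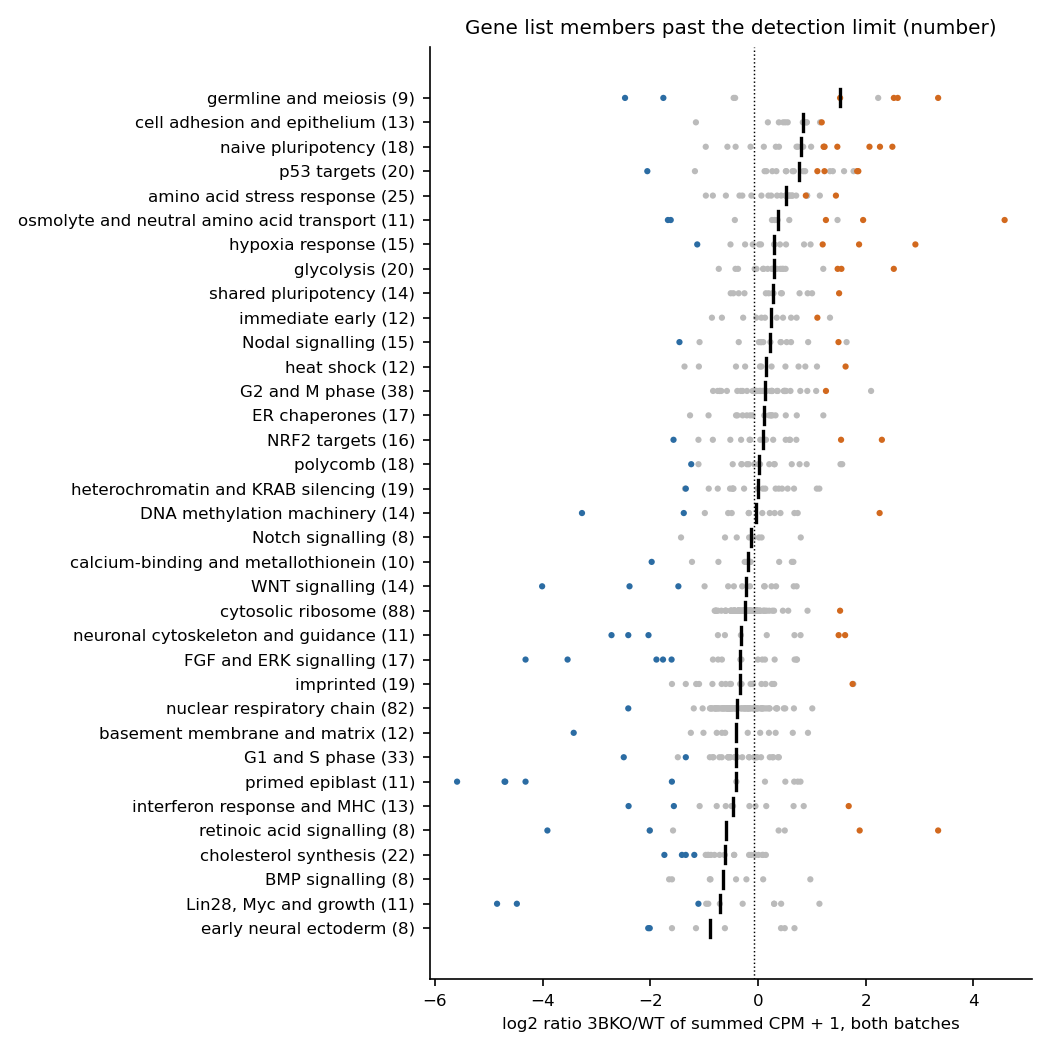
Log2 ratio of 3BKO to WT of every tested member of the lists with at least 8 tested members, with the list's median as a black bar, members higher in both batches in orange and lower in both in blue. The dotted line is the median of all tested genes, -0.08; naive pluripotency (0.79), adhesion and epithelium (0.83) and p53 targets (0.75) lie to its right, and cholesterol synthesis (-0.62) to its left.

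Cell cycle, ribosome and respiratory chain genes differed little gene by gene. Of 33 G1 and S phase genes, 27 had negative ratios and 2 were lower, Dscc1, a cohesion factor at the replication fork (-2.49), and Chaf1b, a histone chaperone subunit (-1.34). The median was -0.40, but -0.18 in batch 1. Of 38 G2 and M phase genes, 1 was higher (Cdc25c, 1.26), and the median was 0.13. Of 88 ribosomal protein genes tested, 73 had negative ratios with a median of -0.25 (-0.06 in batch 1, and -0.03 without the 10 deepest 3BKO cells), and Rpl10l, a testis copy of Rpl10, was past the fold (1.52). Of 82 nuclear respiratory chain genes, 65 had negative ratios, and Cox6b2, a testis subunit, was lower (-2.41). The median was -0.40 over both batches (-0.18 without those cells), yet -0.31 in batch 1 and -0.21 in batch 2. Summed levels of this list were 33211 and 23277 CPM in the WT batches and 32291 and 24046 CPM in the 3BKO batches. None of the 7 tested mitochondrially encoded genes was past the fold.

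Chromatin regulators and imprinted genes were mostly unremarkable. Of 19 heterochromatin genes Chaf1b was lower, and the median was -0.01. Of 18 polycomb genes tested Pcgf1 was lower (-1.24), and the median was 0.02. Of 19 imprinted genes tested, 13 had negative ratios and Kcnq1ot1, a paternally expressed antisense RNA, was higher (log2 ratio 1.76), with 44.3% of its 3BKO reads in 1 cell. Without the 10 3BKO cells deeper than any WT cell its ratio was -0.10. H19, below the detection limit, had 20.6 and 5.52 CPM in WT and no read in 3BKO.

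Immune genes were lower at a pair of members. Of 13 tested interferon and MHC genes, Bst2 and B2m, the constant chain of MHC class I, were lower (-2.40 and -1.56). Of 11 growth genes of the Lin28 and Myc list, Bag2, Prtg and Lin28b were lower, with Myc at -1.39 and 0.10 in the batches. Of 11 tested genes on the list for osmolytes and neutral amino acid transport, Slc6a12, Slc6a8 and Akr1b3 were higher. Slc7a7 and Slc6a15 of that list were lower, beside 2.86% higher and 4.96% lower of all tested genes. S100a1 was the 1 of 10 tested calcium-binding and metallothionein genes past the fold (-1.98).

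No chromosome stood apart. Median log2 ratios over the tested genes of each chromosome ran from -0.21 on chromosome 11 (744 genes) to 0.01 on chromosome 3 (451 genes). The X chromosome had -0.12 (296 genes). The share of genes lower in 3BKO ran from 2.94% on chromosome 1 to 7.34% on chromosome 14, around 4.96% overall.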

How the data were processed

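Live cells sorted from dissociated EBs were sequenced by a modified Smart-seq2 protocol without molecular identifiers. The authors trimmed reads with Trim Galore 0.5.0, aligned them with STAR 2.7.1a and counted them per gene with featureCounts 1.6.1, leaving out multi-mapped reads, and deposited raw counts per gene and cell on GRCm38; the strand setting is not given in the sources used here. Of the columns, 26 had no sample in the labels and were not used.

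Here, cells were filtered as stated, and counts were summed per genotype and batch and scaled to CPM with Python 3.11.15. Poisson and Clopper-Pearson intervals are exact at 95% and cover counting error only. With 1 sample a group there was no test. The sums were tested on simulated data. Scaling alternatives used edgeR 4.0.16 (TMM) and DESeq2 1.42.0 (size factors). Named genes were Dnmt3b, the 15 highest and 15 lowest ratios among genes past the fold (without mitochondrial and unnamed genes), and for each of 45 lists its first 2 members and up to 4 members past the fold; other genes named were singled out from the lists after their values were seen. Gene lists and genes were chosen with earlier results of these data known. Positions and overlaps came from the GENCODE vM21 annotation (GRCm38), whose symbols matched 99.1% of tested genes. RefSeq promoters matched only 73.3% of tested genes, under the 80% required, so the planned comparison of CpG classes was void and is not given. Labels of day 3 mutant cells were not used. Results for a few genes are not reported here.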

Additional observations from a re-analysis of the deposited data

How the results depend on the processing

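The counts of 264 higher and 458 lower genes were recomputed under 16 alternatives, of which 1 was chosen after seeing the data. Batch 1 alone gave 738 and 1008, batch 2 alone 1185 and 1824, a pseudocount of 10 CPM 115 and 187, detection in 10% of cells 423 higher, detection in 40% of cells 145 and 247, and no detection limit 714 and 1033. Single-batch and undetected-gene counts are larger because a requirement was dropped. The other alternatives stayed within 1.5 times, with 1.5 times nearly reached by the 686 lower genes after leaving out, for each gene, the cell with most of its reads. Under TMM factors, all 264 higher and 422 of the 458 lower genes remained. Without the 10 3BKO cells deeper than the deepest WT cell, the added alternative, 280 and 428 were found, of which 196 and 324 were shared. No gene called in one direction was called in the other under any alternative. The share of cells kept in 3BKO moved from 72.04% to 64.5% under a stricter filter (100000 reads, 4000 genes, 25% mitochondrial). Among 97 named genes past the fold, 1260 of 1261 values kept their sign. The exception was Kcnq1ot1 at -0.10 without the deepest cells. Among list medians that turned sign were BMP signalling, 0.039 in batch 2 alone; retinoic acid signalling, 0.37 with no cell filter, 0.68 with thinned cells and 0.38 with detection in 40% of cells; and Lin28, Myc and growth, 0.30 with detection in 40% of cells. In all, 17 of 42 list medians turned sign under at least 1 alternative, the primed epiblast list among them, as did 38 of 77 named genes not past the fold. The medians of naive pluripotency (0.70 to 0.95), p53 targets (0.57 to 0.97), adhesion and epithelium (0.48 to 0.95), cholesterol synthesis (-0.73 to -0.43) and mesenchyme (-1.36 to -0.50) kept theirs. The cause was not tested. No paired analysis was possible because each genotype counted as 1 sample and no test was run.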

Other observations

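The genes given here were picked with their values in view, and no list or count stands behind them. The immunoproteasome subunit gene Psmb10 and the proteasome activator gene Psme2 were lower in 3BKO, with log2 ratios of -2.28 and -2.44. Psme2 had 207 CPM in WT and 37.4 CPM in 3BKO, and Psmb10 had 110 and 21.9 CPM. Psmb8, another immunoproteasome subunit gene, was below the detection limit and had 7.87 and 0.00 CPM. Among genes of the actin cytoskeleton and its adhesions, Zyx, zyxin, had 26.7 CPM in WT and 2.18 CPM in 3BKO, Tpm4, a tropomyosin, 378 and 99.1 CPM, and Vcl, vinculin, 8.70 and 1.58 CPM. The G1 cyclin gene Ccnd2 and its kinase partner Cdk6 had log2 ratios of -2.67 and -2.72.

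Among genes higher in 3BKO, Nfkbia, an inhibitor of NF-kB, had 227 CPM in WT and 669 CPM in 3BKO, and Icam1, an adhesion molecule, had 32.05 and 145.5 CPM. Elf3, an epithelial ETS factor, had 72.5 and 345 CPM, and Sgk1, a stress-regulated kinase, 263 and 928 CPM. Lncenc1, a noncoding RNA of naive embryonic stem cells, had 20.2 and 121 CPM. One gene shows how far a single cell can set a sum. Fgfbp1, below the detection limit, had 7.87 CPM in WT and 207 CPM in 3BKO, with 97.7% of the 3BKO reads in 1 cell, the cell with the most two-cell stage reads, where it reached 6474 CPM.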
